A study of Mus musculus with 6 samples.

Results

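Amino acid transporters of the cell surface were examined in mouse quadriceps, as 10 genes chosen by symbol: Slc43a1, Slc7a5, Slc7a8, Slc3a2, Slc1a5, Slc38a2, Slc38a3, Slc38a4, Slc7a2 and Slc36a2. All 10 were found among the 48795 genes of the deposited count table, and all 10 passed the filter on low counts. MERKO mice carried the genotype muscle-specific Er_alpha-/-, that is, loss of the estrogen receptor gene Esr1 in muscle, and control mice were wildtype. Both groups were male C57BL/6 mice of 20 weeks, with 3 quadriceps libraries each. The driver of the deletion is not given in the sources used here, and neither is whether each library came from 1 animal. The p-values therefore measure the spread between these libraries, which may be technical.

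Amino acids cross the muscle membrane through several families of carriers. The LAT exchangers of the SLC7 family work as pairs of a light chain with the heavy chain encoded by Slc3a2 and trade one amino acid for another, while the CAT members of that family carry cationic amino acids alone. Sodium-coupled carriers of the SLC38 and SLC1 families build up the gradients that such exchangers spend, and uniporters of the SLC43 family let branched-chain and aromatic amino acids follow their own gradient. In skeletal muscle these routes feed leucine to the mTORC1 growth pathway and move glutamine and alanine between muscle, liver and gut.

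Library totals were 15755947 to 26596608 counts in MERKO and 14935532 to 44282448 counts in control. The rRNA gene model CT010467.1 took 6.19% to 32.4% of counts in MERKO and 0.0433% to 27.7% in control. Levels are given as CPM, counts scaled to a common total with TMM factors, and values per library stand in the order of replicates 1 to 3. Esr1 fell to 7.88 ± 1.39 CPM in MERKO, against 30.1 ± 4.59 CPM in control (SD, n = 3 each, log2 fold change -1.95, SE 0.16, adjusted p = 0.0262, edgeR quasi-likelihood test). That call was lost when MERKO 1, MERKO 2, control 2 or control 3 was left out, with adjusted p-values of 0.102, 0.0576, 0.109 and 0.0632. The 6 marker genes of skeletal muscle, among them Ckm and Acta1, summed to 88911 to 140483 CPM in MERKO and 115461 to 135961 CPM in control. In whole muscle, fewer cells of a type and less RNA per cell cannot be told apart.

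Levels were compared between genes as CPM per kilobase of annotated exon, which accounts for gene length. Slc38a4, a sodium-coupled carrier of small neutral amino acids, had the highest mean level in both groups, at 15.5 ± 5.32 in MERKO and 25.3 ± 4.24 CPM per kilobase in control (SD, n = 3 each). It made up 19.0%, 31.0% and 33.4% of the summed level of the 10 genes in the MERKO libraries, against 31.3%, 38.1% and 34.3% in the control libraries. Slc7a2, Slc38a2, Slc1a5, Slc38a3 and Slc3a2 followed in control, with means from 5.69 to 10.8 CPM per kilobase. In control, Slc38a4 lay above Slc7a2 in level in every library, whereas each of the next pairs in that order overlapped, down to Slc3a2.

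The lower part of the order was better separated. In both groups every library had more Slc43a1 than any library had Slc7a8. Slc43a1 averaged 2.54 ± 0.09 in MERKO and 3.71 ± 0.32 CPM per kilobase in control (SD, n = 3 each). Slc7a8 averaged 1.37 ± 0.44 in MERKO and 1.79 ± 0.40 CPM per kilobase in control. Slc36a2 and Slc7a5 were the lowest in both groups, with group means from 0.184 to 0.425 CPM per kilobase. Their order differed between the groups: Slc7a5 lay below Slc36a2 in every control library, and in MERKO the libraries of these 2 genes overlapped. Among the upper genes in MERKO, Slc38a4, Slc38a3, Slc7a2 and Slc38a2 overlapped pairwise with their neighbours, and Slc3a2 overlapped with Slc1a5.

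**Figure D1:**
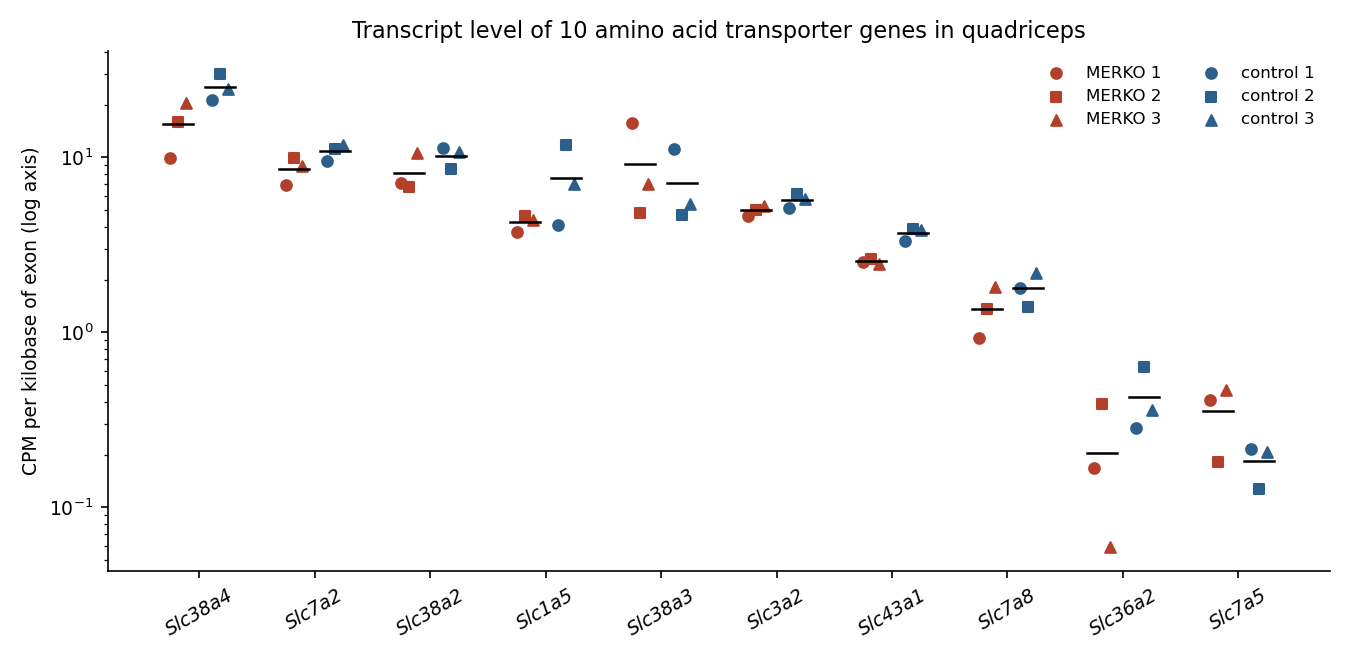
Level of each transporter gene in CPM per kilobase of exon, on a log axis, with 1 symbol per library (MERKO in red, control in blue, symbol shape by replicate number) and a black bar at the group mean of n = 3. Slc38a4 has the highest mean in both groups, and Slc36a2 and Slc7a5 have the lowest, with group means from 0.184 to 0.425 CPM per kilobase.

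None of the 10 transporters passed the threshold of an adjusted p of 0.05 in the comparison of MERKO with control (edgeR quasi-likelihood test with Benjamini-Hochberg adjustment over 13628 genes), where 0.00734% of all genes passed. DESeq2 and limma-voom also called 0 of the 10, against 0.165% and 0.00734% of all genes. The fitted fold change was below 0 for 8 of the 10, against 47.9% of all genes, and the median log2 fold change was -0.37, against 0.01 over all genes tested. At an unadjusted p under 0.05 there were 4 of 10 transporters, Slc43a1, Slc38a4, Slc1a5 and Slc7a5, against 7.04% of all genes. The MERKO libraries lay below all control libraries in 2 of 10, Slc43a1 and Slc38a4, against 7.1% of all genes, and above them in 0 of 10, against 6.17%. In either direction that is 2 of 10, beside 13.3% of all genes. Both these transporters and the gene lists below were chosen with earlier results of these data known. Shares set beside those of all genes are therefore descriptions and test no set.

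**Figure D2:**
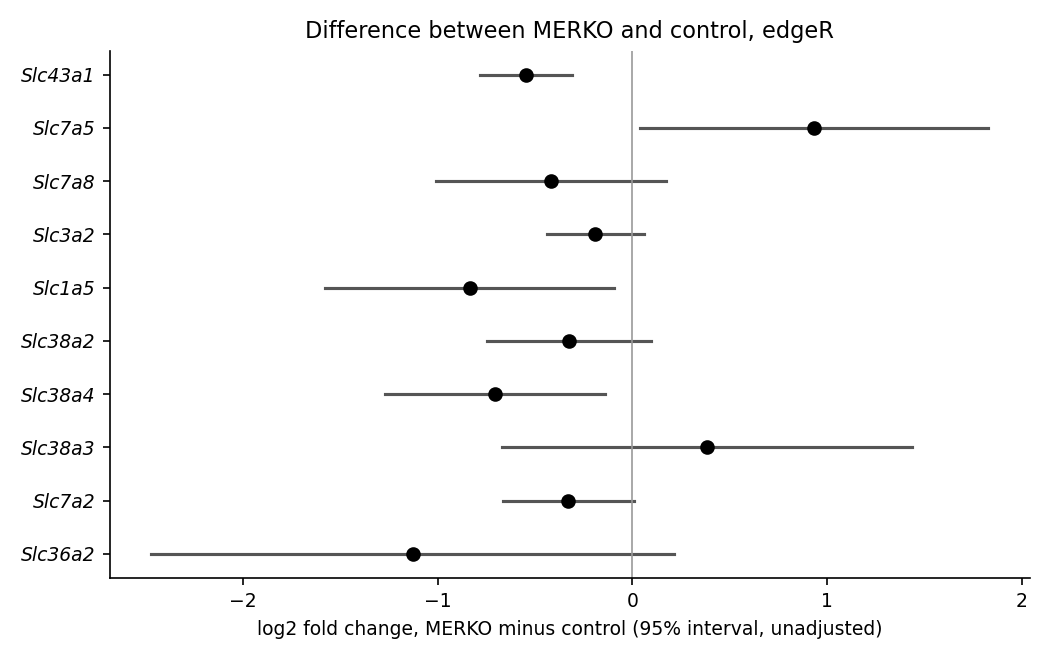
Log2 fold change of each transporter gene, MERKO minus control, as a point with its 95% interval from edgeR (not adjusted for the number of genes). Points of 8 genes lie below 0, and the intervals of Slc43a1, Slc38a4 and Slc1a5 lie wholly below 0 and that of Slc7a5 wholly above it.

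Slc43a1 (ENSMUSG00000027075.16, GRCm38 chromosome 2, 84838850 to 84863594, plus strand) encodes LAT3, a sodium-independent uniporter of leucine, isoleucine, valine and phenylalanine. It had 14.5, 15.1 and 14.1 CPM in the MERKO libraries, against 19.1, 22.4 and 22.1 CPM in the control libraries. All MERKO libraries lay in a narrow band below the lowest control library. The mean was 14.5 ± 0.51 CPM in MERKO, against 21.2 ± 1.82 CPM in control (SD, n = 3 each), or 0.685 times the control level. With a log2 fold change of -0.55 (SE 0.10, 95% confidence interval, CI, -0.78 to -0.31), Slc43a1 ranked 11 of 13628 genes by p in edgeR, and its adjusted p was 0.631. DESeq2 gave an adjusted p of 0.0776, and the edgeR fit with no filter on low counts gave 0.0496, with an SE of 0.13. That was the 1 setting in which a transporter of the 10 was called, and 0.54% of all genes passed in it. Adjusted p-values over the 16 alternative settings ran from 0.0496 to 0.999.

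The transcripts whose pattern was most like that of Slc43a1 were Mmp9, Zranb1 and Esr1, with Pearson's r of log2 CPM of 0.9919, 0.9891 and 0.9864 over the 6 libraries, out of 12276 genes compared. Mmp9 encodes a secreted gelatinase, Zranb1 a deubiquitinating enzyme, and Esr1 is the targeted gene itself. These values describe 6 libraries in 2 groups, and a difference between the groups enters each of them.

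Slc7a5 (ENSMUSG00000040010.10, chromosome 8, 121881150 to 121907694, minus strand) encodes LAT1, the light chain that brings leucine into the cell in exchange for glutamine. It had 50, 8 and 36 counts in the MERKO libraries, against 19, 6 and 42 counts in the control libraries. These counts corresponded to 1.52, 0.673 and 1.73 CPM in MERKO, against 0.798, 0.473 and 0.772 CPM in control. MERKO 1 and MERKO 3 were above every control library, and MERKO 2 lay within the control range, with an exact 95% Poisson interval of 0.291 to 1.33 CPM that covers counting error only. The log2 fold change was 0.93 (SE 0.39, 95% CI 0.04 to 1.83, adjusted p = 0.687, edgeR), the highest of the 10. Leaving out 1 library at a time gave values from 0.72 to 1.199.

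Slc7a8 (ENSMUSG00000022180.6, chromosome 14, 54722209 to 54781946, minus strand) encodes LAT2, a second light chain with a broader range of neutral amino acids. It had 4.65, 6.82 and 9.05 CPM in the MERKO libraries, against 8.99, 6.94 and 10.9 CPM in the control libraries. The groups overlapped, with MERKO 1 the lowest of the 6 libraries. MERKO minus control came to -0.42 on the log2 scale (SE 0.26, 95% CI -1.01 to 0.17, adjusted p = 0.733, edgeR). It was -0.18 without MERKO 1, -0.24 without control 3 and -0.69 without MERKO 3.

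Slc3a2 (ENSMUSG00000010095.13, chromosome 19, 8706882 to 8723369, minus strand) encodes 4F2hc, the heavy chain that carries both light chains to the membrane. It had 16.4, 17.7 and 18.6 CPM in the MERKO libraries, against 18.1, 21.8 and 20.3 CPM in the control libraries. Only MERKO 3 reached into the control range, and the highest library was 1.33 times the lowest, the smallest spread among the 10 genes. On the log2 scale the difference was -0.19 (SE 0.11, 95% CI -0.44 to 0.06, adjusted p = 0.715, edgeR), and -0.13 without control 2.

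Heavy and light chains were then set side by side within each library, per kilobase of exon. The Slc3a2 level was 11.3, 27.6 and 11.3 times the Slc7a5 level in the MERKO libraries, against 23.8, 48.3 and 27.6 times in the control libraries. The heavy chain transcript thus exceeded that of LAT1 in all 6 libraries, and MERKO 2 had the same ratio as control 3. The level of Slc7a5 relative to Slc7a8 was 0.441, 0.133 and 0.258 in the MERKO libraries, against 0.12, 0.092 and 0.0956 in the control libraries. For this ratio the MERKO libraries lay above the control libraries, with MERKO 2 close to control 1. These ratios were chosen with earlier results known, were not tested, and rest on as few as 6 counts of Slc7a5.

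Slc1a5 (ENSMUSG00000001918.17, chromosome 7, 16781340 to 16798274, plus strand) encodes ASCT2, a sodium-dependent exchanger that supplies glutamine. It had 15.6, 19.4 and 18.2 CPM in the MERKO libraries, against 17.2, 49.0 and 29.3 CPM in the control libraries. Control 2 was far above the other libraries, and control 1 lay within the MERKO range. The fold change was -0.84 on the log2 scale (SE 0.32, 95% CI -1.58 to -0.10, adjusted p = 0.683, edgeR), and -0.39 without control 2. The genes most like Slc1a5 in pattern were Abca4 (Pearson's r = 0.9977), Smarcad1 (0.9973) and Tmem45b (0.9923), over the same 6 libraries. The high value of control 2 enters each of these r values.

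Slc38a2 (ENSMUSG00000022462.6, chromosome 15, 96687392 to 96699730, minus strand) encodes SNAT2, the system A carrier whose transcript is induced when cells lack amino acids. It had 63.3, 59.6 and 93.1 CPM in the MERKO libraries, against 100.1, 75.9 and 94.5 CPM in the control libraries. MERKO 1 and MERKO 2 were the lowest of the 6, and MERKO 3 lay inside the control range. MERKO minus control was -0.32 on the log2 scale (SE 0.18, 95% CI -0.75 to 0.10, adjusted p = 0.715, edgeR). It was -0.20 without MERKO 2, -0.55 without MERKO 3 and -0.16 without MERKO 1 and control 1 together.

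Slc38a4 (ENSMUSG00000022464.13, chromosome 15, 96994820 to 97055956, minus strand) encodes SNAT4, a second system A carrier that also takes up cationic amino acids, and is imprinted in mouse. It had 42.4, 68.2 and 87.6 CPM in the MERKO libraries, against 91.1, 127 and 105 CPM in the control libraries. The groups did not overlap, although MERKO 3 came close to control 1. The mean was 66.0 ± 22.7 CPM in MERKO, against 107.7 ± 18.1 CPM in control (SD, n = 3 each), or 0.613 times the control level. The log2 fold change was -0.71 (SE 0.25, 95% CI -1.27 to -0.14, adjusted p = 0.680, edgeR), and -0.46 without MERKO 1. Tlr5 and Afap1l1 were most like Slc38a4 in pattern, with Pearson's r of 0.9922 and 0.9917 over the 6 libraries.

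Slc38a3 (ENSMUSG00000010064.15, chromosome 9, 107650634 to 107669530, minus strand) encodes SNAT3, the system N carrier of glutamine, histidine and asparagine that can run in both directions. It had 83.3, 25.3 and 37.1 CPM in the MERKO libraries, against 58.9, 24.9 and 28.6 CPM in the control libraries. The highest library of each group was its library 1. The groups overlapped in part, with MERKO 1 above every control library and control 2 below every MERKO library. The 7 markers of slow-twitch fibres, among them Myh7, summed to 511, 35.9 and 40.6 CPM in the MERKO libraries, against 524, 42.8 and 47.1 CPM in the control libraries. The same libraries were thus high in Slc38a3 and in slow-fibre markers, and the part of the slow fibres in the Slc38a3 values was not tested. The log2 fold change of Slc38a3 was 0.38 (SE 0.46, 95% CI -0.67 to 1.44, adjusted p = 0.866, edgeR). It was -0.26 without MERKO 1, 0.87 without control 1 and 0.23 without both. Without MERKO 2 it was 0.69, without control 2 it was 0.17 and without control 3 it was 0.21.

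Slc7a2 (ENSMUSG00000031596.15, chromosome 8, 40862396 to 40922308, plus strand) encodes CAT2, which carries arginine, lysine and ornithine without sodium. It had 63.5, 90.5 and 82.0 CPM in the MERKO libraries, against 87.1, 101 and 107 CPM in the control libraries. MERKO 2 exceeded control 1, and otherwise the MERKO libraries were the lower ones. On the log2 scale MERKO minus control was -0.33 (SE 0.15, 95% CI -0.66 to 0.01, adjusted p = 0.713, edgeR), and -0.20 without MERKO 1. The lincRNA gene Gm26584 on the opposite strand shares 635 of the 9135 exon bases of Slc7a2 (6.95%), and without a stated strand setting reads there cannot be told apart.

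Slc36a2 (ENSMUSG00000020264.5, chromosome 11, 55158470 to 55185077, minus strand) encodes PAT2, a proton-coupled carrier of glycine, alanine and proline that also marks brown and beige adipocytes in mouse. It had 18, 15 and 4 counts in the MERKO libraries, against 22, 26 and 64 counts in the control libraries. These gave 0.547, 1.26 and 0.192 CPM in MERKO, against 0.924, 2.05 and 1.18 CPM in control. MERKO 2 lay inside the control range, and the 4 counts of MERKO 3 have an exact 95% Poisson interval of 0.0524 to 0.493 CPM. MERKO minus control stood at -1.13 on the log2 scale (SE 0.58, 95% CI -2.47 to 0.21, adjusted p = 0.713, edgeR). It was -0.67 without MERKO 3 and -1.75 without MERKO 2.

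**Figure D3:**
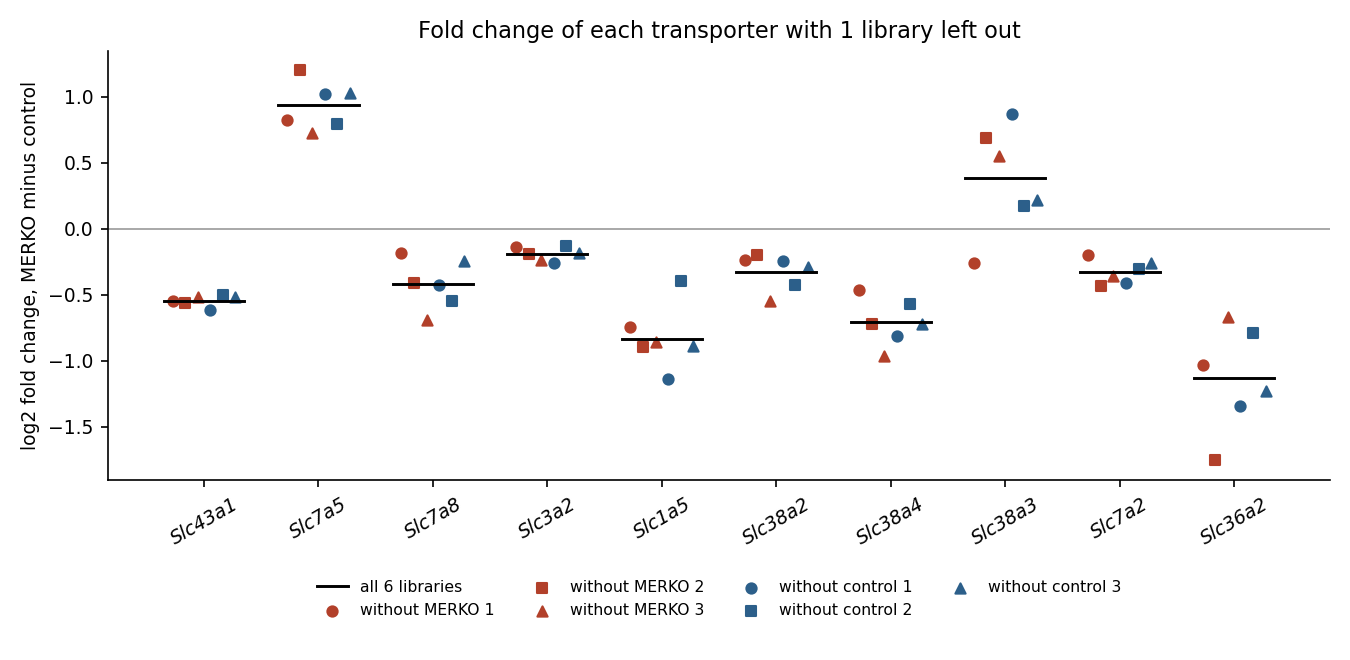
Log2 fold change of each transporter gene, MERKO minus control, with all 6 libraries (black bar) and with each library left out in turn (symbols as in the legend). Slc43a1 stays between -0.62 and -0.50, while Slc38a3 runs from -0.26 without MERKO 1 to 0.87 without control 1.

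Markers of fat differed between the libraries, and their values stand here beside the transporters. The 6 adipocyte markers (Adipoq, Lep, Retn, Plin1, Cidec and Cfd) summed to 14.6, 39.7 and 44.7 CPM in the MERKO libraries, against 45.0, 296 and 130 CPM in the control libraries. All 6 had a fold change below 0, 0 passed the edgeR threshold, and none was at 0 in all libraries. Calls of these markers depended on the setting: edgeR called all 6 with no composition factor, where 0.682% of all genes passed, and all 6 with no filter on low counts, where 0.54% passed. Of the 6, Lep alone was called without MERKO 1 and control 1 together, where 0.0526% passed. Control 2 had the highest sum and also the highest Slc1a5, Slc38a4, Slc43a1, Slc3a2 and Slc36a2. It was the lowest library for Slc7a5 (0.473 CPM) and Slc38a3 (24.9 CPM), and not the highest for Slc7a2, Slc38a2 and Slc7a8. MERKO 1 had the lowest sum and the lowest Slc1a5, Slc38a4, Slc3a2, Slc7a2 and Slc7a8, but the highest Slc38a3 (83.3 CPM). The lowest library was MERKO 3 for Slc43a1 and Slc36a2, and MERKO 2 for Slc38a2. MERKO 3 and control 1, which differed least in adipocyte sum, had 18.2 and 17.2 CPM of Slc1a5 and 87.6 and 91.1 CPM of Slc38a4. For Slc43a1 the same libraries had 14.1 CPM in MERKO 3 and 19.1 CPM in control 1. MERKO 2, also near control 1 in adipocyte sum, had 19.4 CPM of Slc1a5, 68.2 CPM of Slc38a4 and 15.1 CPM of Slc43a1. MERKO 1 also had the lowest sum of skeletal muscle markers (88911 CPM). Its sums of tendon, Schwann cell and endothelium markers (395, 53.8 and 199 CPM) were the highest. The part of adipocyte RNA in these transporter values was not tested.

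**Figure D4:**
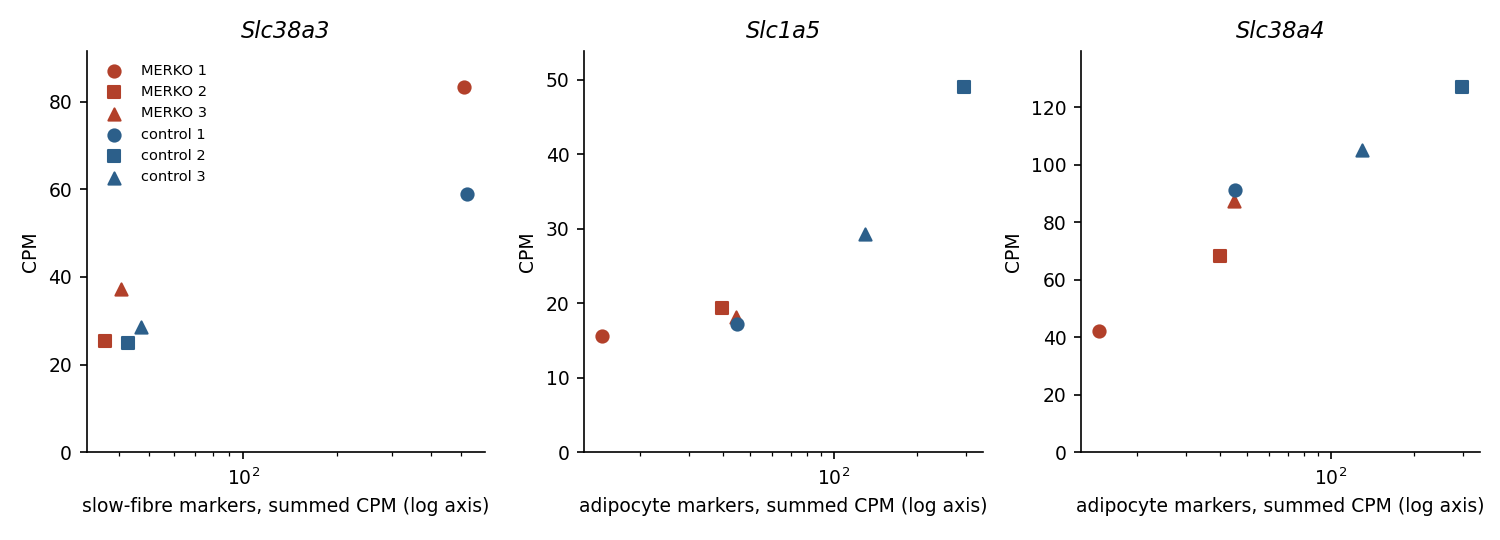
CPM of Slc38a3 against summed CPM of slow-fibre markers, and CPM of Slc1a5 and of Slc38a4 against summed CPM of adipocyte markers (marker sums on log axes), 1 symbol per library. MERKO 1 and control 1 stand apart in the first panel at 83.3 and 58.9 CPM, and control 2 stands highest in the other panels at 49.0 and 127 CPM.

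Markers of other cells that whole muscle can hold are given as sums for the range of each group. Tendon markers (7 of 8 with a fold change above 0) summed to 82.2 to 395 CPM in MERKO and 29.7 to 83.2 CPM in control, and Schwann cell markers (6 of 6) to 35.1 to 53.8 CPM in MERKO and 25.1 to 32.9 CPM in control. Markers of endothelium summed to 147 to 199 CPM in MERKO and 130 to 189 CPM in control, and those of macrophages to 66.8 to 103 CPM in MERKO and 69.0 to 117 CPM in control. Hepatocyte markers, among them Alb, had 1.85 to 2.86 CPM in MERKO, whereas control 1, control 2 and control 3 had 18.6, 18.2 and 1.23 CPM. Erythrocyte markers had 88.9 to 118 CPM in MERKO and 91.5 to 162 CPM in control, satellite cell markers 7.97 to 12.1 CPM in MERKO and 7.02 to 12.0 CPM in control. In edgeR 0 genes of these lists passed, and none was at 0 in all libraries. Of the 3 hepatocyte markers, 1 had enough counts to be tested. The tendon gene Kera was called by DESeq2 and by edgeR without MERKO 3, where 0.0784% of all genes passed, and Alb by edgeR without control 3, where 0.0143% passed. With no composition factor and with no filter, edgeR called Kera, Comp, Fmod, Mkx, Thbs4, Chad and Alb. The part of these cells in the transporter values was not tested.

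Promoter windows from RefSeq (GRCm38.p6), which run from 250 bases before to 50 bases after a start site, were found for 5 of the 10 genes, as 7 windows. Entries were lacking for Slc7a5, Slc1a5, Slc38a3, Slc7a2 and Slc36a2. Windows are shown for Slc43a1 and Slc38a4, the genes whose groups did not overlap, and for Slc3a2, where matches to the core of the estrogen response element were found. Capitals mark that core, the 5 letters GGTCA or TGACC, its reverse complement.
Slc43a1, chr2:84840073-84840372, plus strand: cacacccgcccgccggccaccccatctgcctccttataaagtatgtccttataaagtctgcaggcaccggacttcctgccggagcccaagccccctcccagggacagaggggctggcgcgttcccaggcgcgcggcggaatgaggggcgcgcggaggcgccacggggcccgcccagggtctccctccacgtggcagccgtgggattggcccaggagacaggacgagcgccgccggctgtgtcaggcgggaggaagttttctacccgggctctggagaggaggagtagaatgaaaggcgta
Slc38a4, first start, chr15:97055907-97056206, minus strand: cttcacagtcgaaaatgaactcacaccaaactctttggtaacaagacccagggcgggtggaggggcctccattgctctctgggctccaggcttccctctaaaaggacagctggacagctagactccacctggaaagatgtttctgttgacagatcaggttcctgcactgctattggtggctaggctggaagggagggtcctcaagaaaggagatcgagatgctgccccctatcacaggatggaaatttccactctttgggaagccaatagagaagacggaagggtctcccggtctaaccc
Slc38a4, second start, chr15:97031164-97031463, minus strand: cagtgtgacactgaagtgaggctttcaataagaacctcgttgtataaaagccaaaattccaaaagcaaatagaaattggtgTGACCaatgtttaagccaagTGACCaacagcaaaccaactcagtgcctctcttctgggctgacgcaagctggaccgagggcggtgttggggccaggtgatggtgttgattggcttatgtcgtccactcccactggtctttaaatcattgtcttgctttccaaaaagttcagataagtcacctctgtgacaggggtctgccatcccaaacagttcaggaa
Slc3a2, chr19:8713848-8714147, minus strand: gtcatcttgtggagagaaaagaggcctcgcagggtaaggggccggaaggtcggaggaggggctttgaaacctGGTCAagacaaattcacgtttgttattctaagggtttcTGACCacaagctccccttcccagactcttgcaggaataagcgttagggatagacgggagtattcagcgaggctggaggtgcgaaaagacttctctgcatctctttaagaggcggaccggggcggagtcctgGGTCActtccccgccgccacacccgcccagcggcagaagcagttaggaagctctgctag

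The core, searched on both strands, occurred at positions -169 and -149 from the second start of Slc38a4 and at -178, -140 and -9 from the start of Slc3a2. It was in none of the other 5 windows, which include those of Slc43a1, Slc7a8 and Slc38a2. Of 32851 promoter windows of the same length, 40.5% held it. The full estrogen response element GGTCANNNTGACC, which contains the core on both strands, was in 0 of the 7 windows and in 0.07% of all windows. The amino acid response element TGATGNAA was in 0 of the 7 windows and in 3.97% of all, and the glucocorticoid response element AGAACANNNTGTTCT was in 0 of the 7 and in 0.00913% of all. A match is a description of letters in these windows, and sequence outside them was not searched.

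Of 47 further amino acid transporter genes, 23 had enough counts to be tested and 0 passed in edgeR, DESeq2 or limma-voom, with 5 at an unadjusted p under 0.05 in edgeR, against 7.04% of all genes. Fold changes were above 0 for 17 and below 0 for 6, with a median log2 fold change of 0.18. MERKO lay above control without overlap in 4 of the 23, against 6.17% of all genes, and below it in 0, against 7.1%. Slc43a2, which encodes LAT4 and is the close relative of Slc43a1, averaged 11.3 ± 2.40 CPM in MERKO, against 8.20 ± 1.80 CPM in control (SD, n = 3 each). Its log2 fold change was 0.47 (SE 0.20, adjusted p = 0.706, edgeR), with overlapping groups. Slc36a1, a proton-coupled carrier of the lysosome, averaged 5.19 ± 0.68 CPM in MERKO, against 3.65 ± 0.21 CPM in control (0.50 on the log2 scale, SE 0.16, adjusted p = 0.668), and the groups did not overlap.

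Among the low transcripts, Slc6a17, a carrier of synaptic vesicles, had 1.095, 0.926 and 0.866 CPM in the MERKO libraries, against 0.420, 0.316 and 0.515 CPM in the control libraries (1.13 on the log2 scale, SE 0.33, adjusted p = 0.654, edgeR). Slc38a1, a system A carrier, had 0.791, 0.505 and 0.962 CPM in the MERKO libraries, against 0.504, 0.473 and 0.386 CPM in the control libraries (0.80 on the log2 scale, SE 0.36, adjusted p = 0.713). The groups overlapped for neither gene. For Slc38a1 that rests on MERKO 2 at 0.505 CPM against control 1 at 0.504 CPM, nearly equal values on 6 and 12 counts. Slc7a10, a neutral amino acid exchanger that marks white adipocytes in mouse, had 0.0608, 0.168 and 0.770 CPM in the MERKO libraries, against 0.546, 2.45 and 1.31 CPM in the control libraries. On 2 to 71 counts per library, its log2 fold change was -2.06 (SE 0.83, adjusted p = 0.683), and -3.81 without MERKO 3. Slc1a3, a glutamate carrier, averaged 2.12 ± 0.60 CPM in MERKO, against 4.74 ± 3.30 CPM in control, a difference of -1.13 on the log2 scale (SE 0.48, adjusted p = 0.694) that was -0.46 without control 2. Control 2 was the highest library for both of these genes, as it was for adipocyte markers. The part of adipocyte RNA in the Slc7a10 and Slc1a3 values was not tested.

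The genes that act next to the transporters were examined by list. Of 38 tested genes of amino acid sensing by mTORC1, 18 had fold changes above 0, 20 below 0 and 0 passed (edgeR, median log2 fold change -0.01). Lamtor1, a lysosomal anchor of mTORC1, averaged 46.4 ± 1.60 CPM in MERKO, against 52.1 ± 1.92 CPM in control, a difference of -0.17 on the log2 scale (SE 0.08, adjusted p = 0.713). Eif4ebp1, a repressor of translation, and Rptor, an mTORC1 subunit, had log2 fold changes of -0.38 and 0.29. MERKO lay below control without overlap in 6 of the 38, Lamtor1 and Eif4ebp1 among them, against 7.1% of all genes. MERKO lay above control without overlap in 1, against 6.17%. In either direction that is 18.4% of the list, beside 13.3% of all genes. Of 24 tested genes of branched-chain amino acid breakdown, 18 lay above 0, 6 below 0 and 0 passed (median 0.07). Mccc1, a subunit of the leucine-degrading methylcrotonyl-CoA carboxylase, had 21.6, 21.1 and 19.8 CPM in the MERKO libraries, against 15.0, 16.7 and 13.01 CPM in the control libraries. Its groups did not overlap (0.49 on the log2 scale, SE 0.12, adjusted p = 0.654, edgeR). Pcca, a subunit of propionyl-CoA carboxylase, and Hsd17b10, a dehydrogenase of isoleucine breakdown, had log2 fold changes of 0.18 and -0.16 with overlapping groups. The Pcca value was 0.10 without control 3, and that of Hsd17b10 was -0.067 without MERKO 2 and -0.24 without MERKO 1.

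Enzymes that make and use glutamine and alanine were measured next to their carriers. Of 8 tested, 5 lay above 0, 3 below 0 and 0 passed (edgeR, median 0.06). Gpt2, the mitochondrial alanine transaminase, averaged 338 ± 84.3 CPM in MERKO, against 459 ± 52.9 CPM in control (-0.44 on the log2 scale, SE 0.20, adjusted p = 0.712), and the groups did not overlap. Without MERKO 1 the Gpt2 difference was -0.25. Glul, glutamine synthetase, averaged 529 ± 78.5 CPM in MERKO, against 615 ± 104 CPM in control, with overlapping groups. Asns, asparagine synthetase, stood between 0.673 and 0.851 CPM in MERKO and between 0.845 and 1.74 CPM in control. For arginine and nitric oxide, 7 of 9 tested genes lay above 0, 2 below 0 and 0 passed (median 0.08). Nos2, Gatm and Nos1, which make nitric oxide or the creatine precursor from arginine, had log2 fold changes of 0.74, 0.47 and 0.20 with overlapping groups. Nos2 was at 0.48 and Nos1 at 0.078 without control 3, Nos1 at 0.12 without MERKO 3, and Gatm at 0.19 without MERKO 1.

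The lists of the ATF4 response and of glucocorticoid targets hold regulators that act on several of these carriers. Of 18 tested genes of the ATF4 list, 8 lay above 0, 10 below 0 and 0 passed (edgeR, median -0.04). Aldh1l2, a mitochondrial folate enzyme, had a log2 fold change of 0.94, while Phgdh, the first enzyme of serine synthesis, had -1.21 (-0.51 without control 2) and Asns -0.76, the last in 2 lists. Of 17 tested genes of the glucocorticoid list, 1 lay above 0 and 16 below 0, where 47.9% of all genes lay below 0. In edgeR 0 of the 17 passed (median -0.21). Fkbp5 averaged 55.4 ± 13.1 CPM in MERKO, against 104.7 ± 7.64 CPM in control, and the groups did not overlap. Its difference was -0.92 on the log2 scale (SE 0.17, adjusted p = 0.631, edgeR). DESeq2 called Fkbp5 (adjusted p = 0.000495), where 0.165% of all genes passed. Sgk1, a kinase that acts on many membrane carriers, had 248, 272 and 272 CPM in the MERKO libraries, against 368, 301 and 360 CPM in the control libraries. All MERKO libraries of Sgk1 lay below control (-0.38 on the log2 scale, SE 0.12, adjusted p = 0.667, edgeR). Trim63, a ubiquitin ligase of muscle atrophy, averaged 270.2 ± 85.8 CPM in MERKO, against 471 ± 131 CPM in control (-0.80 on the log2 scale, SE 0.26, adjusted p = 0.671). At an unadjusted p under 0.05, which 7.04% of all genes reached, there were 5 of 17 glucocorticoid genes. The counts were 1 of 38 for the mTORC1 list, 1 of 24 for the branched-chain list and 1 of 18 for the ATF4 list, each a share below that of all genes, and 0 for the glutamine and alanine list and the arginine list.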

How the data were processed

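What the authors deposited is 1 table of whole-number read counts, not normalized, with genes as entries and 6 quadriceps libraries as columns. The labels' protocols name Trizol for the RNA and the TruSeq RNA Sample Prep Kit for the libraries. STAR 2.5.2b, HTSeq 0.9.1, DESeq, mm10 and GRCm38 appear in the submitters' processing notes. What each tool did, which annotation was used, and how strand and multiply placed reads were handled is not given in the sources used here. Symbols were matched for 48349 of 48795 identifiers, and GENCODE M21 (GRCm38) gave coordinates and exon lengths.

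Groups and replicate numbers come from the sample titles. The comparison used edgeR 4.0.16 in R 4.3.3 (filterByExpr, TMM, quasi-likelihood test), adjusted by Benjamini-Hochberg over the 13628 genes kept, with a threshold of 0.05. A fold change is MERKO minus control on the log2 scale. Alternatives were DESeq2 1.42.0, limma-voom (limma 3.58.1), other scalings and filters, a robust prior, a threshold of 0.1, replicate number as a block, removal of the rRNA gene model and leaving out libraries. The code was tested on simulated data. Log2 CPM used a prior count of 2.

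The transporters and gene lists were chosen with earlier results of these data known. Beside the 10 transporters and Esr1, the rule named the 6 further transporters and 3 genes per pathway list with the lowest p, and the 3 genes most like each of the 3 lowest-p transporters; 1 gene so chosen is not reported here. No 2 libraries of a group agreed within sampling noise (chi-square per degree of freedom 122.1 or more). Pairs of 1 MERKO and 1 control library ran from 28.54 to 1209. These values include the rRNA gene model, whose share of counts ran from 0.0433% to 32.4% over the libraries. Reads have no molecular identifiers, so counting intervals cover counting error only.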

Additional observations from a re-analysis of the deposited data

How the results depend on the processing

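Over all genes, 1 gene passed in edgeR, Esr1. The count was 23 in DESeq2, 93 with no composition factor (44 higher and 49 lower in MERKO, against 0 higher and 1 lower with TMM), 140 with no filter, 7 without MERKO 1 and control 1 together, and 0 to 11 when 1 library was left out. With no composition factor the fold changes shifted by -0.12 in the median on the log2 scale. The Esr1 log2 fold change lay between -2.08 and -1.84 when 1 library was left out, and its call was lost without MERKO 1, MERKO 2, control 2 or control 3. Of the 10 transporters, 0 passed in edgeR and under each alternative but no filter, where 1 passed, Slc43a1; of the further transporters, 1 passed with no composition factor, Slc7a10. At a threshold of 0.1 the counts of both groups of transporters were 0. Of the named pathway genes, Fkbp5 passed in DESeq2, with the block and with no filter, Trim63 with the block and with no filter, and Aldh1l2 with no filter. Slc38a3 was the 1 transporter of the 10 whose direction turned, with values from -0.26 without MERKO 1 to 0.87 without control 1. The filter on CPM (1 or more in 3 or more libraries) left Slc7a5 untested. The causes were not tested. With replicate number as a block 51 of 13628 genes passed, and no transporter of the 10 was among them. Lep, Cidec and Cfd of the 6 adipocyte markers and Kera and Chad of the 8 tendon markers were. The correlations of deviations from the group means were 0.448, 0.163 and 0.0612 for the pairs numbered 1, 2 and 3, and MERKO 2 correlated best with control 3 (0.184). Chi-square per degree of freedom, with the rRNA gene model included, was 66.37, 28.54 and 677 for the pairs numbered 1, 2 and 3. Slow-fibre marker sums were high in both libraries numbered 1. Whether a shared number stands for a shared origin is not given in the sources used here and cannot be told from these values. The main comparison used no pairing. With 4 to 64 counts per library, counting error alone spreads Slc7a5 and Slc36a2 widely.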

Other observations

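Among the 47 further amino acid transporter genes, those with the highest level per kilobase of exon were Slc6a6, Slc38a10 and Slc16a10, named after their values were seen. Slc6a6, the taurine transporter, averaged 9.64 ± 0.35 in MERKO and 8.54 ± 0.51 CPM per kilobase in control (SD, n = 3 each), a level between those of Slc38a4 and Slc3a2. Its MERKO libraries lay above control, with a log2 fold change of 0.18 (SE 0.09, adjusted p = 0.713, edgeR). Slc38a10 averaged 6.20 ± 1.01 in MERKO and 5.48 ± 0.78 CPM per kilobase in control, a difference of 0.18 on the log2 scale (SE 0.15, adjusted p = 0.800). Slc16a10, a uniporter of aromatic amino acids, averaged 5.28 ± 1.17 in MERKO and 6.02 ± 0.50 CPM per kilobase in control, a difference of -0.19 on the log2 scale (SE 0.16, adjusted p = 0.809), and the groups overlapped for both.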
